A study of Mus musculus with 15 samples.

Results

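Transcripts of 10 genes for the proteases of invasion and their inhibitors were followed by bulk RNA-seq in 4T1 cells, a mouse mammary carcinoma line used as a model of triple-negative breast cancer. The genes were chosen by symbol, with earlier results of these data known. They were Mmp2, Mmp3, Mmp9, Mmp13, Mmp14, Timp1, Timp2, Timp3, Plau and Plaur, and all 10 were found among the 40402 genes of the count table. The cells, wild type by their labels, were left untreated or received blackberry extract (BLA), blueberry extract (BLU), or gold nanoparticles made with the blackberry (BLA-A) or blueberry (BLU-A) extract, starting 24 h after seeding. The labels give neither dose nor duration for these libraries, while the study states that 1 concentration was used across its treatments. The labels number 3 samples per condition, and the study describes its n in general as independent biological replicates. Its sequencing supplement, however, names 1 sample per condition and lists 3 sets of reads for each as subset reads. The alignment report in that supplement counts each of the 3 as a library. Counts of the same condition differed by less than sampling noise (chi-square per degree of freedom between 0.0951 and 0.475). They were therefore averaged and counted as 1 sample. A difference between 2 conditions is thus a difference between 2 libraries, with no replicate check, and every interval below covers counting error only.

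Matrix metalloproteases (MMPs) are zinc enzymes that cut collagens, laminins and other matrix proteins, and most are secreted as inactive proenzymes. Tissue inhibitors of metalloproteases (TIMPs) bind the active site of MMPs. Urokinase (Plau) on its receptor (Plaur) turns plasminogen into plasmin, which cuts fibrin and can activate several pro-MMPs. In mammary tumors this network is known for its role in the passage of carcinoma cells through basement membrane and stroma.

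Library totals ran from 25613778 to 26956442 counts, so that 3 counts corresponded to 0.111 to 0.117 CPM (counts scaled to a common library total). Levels below are CPM scaled by TMM, a normalization that sets the bulk of genes equal between libraries. All 10 genes passed the filter on low counts (1 CPM or more in some library), as 17647 genes did. The 5 epithelial markers fixed for 4T1 cells (Krt8, Krt18, Krt19, Epcam, Cdh1) were each at 1 CPM or more in every library. Their summed level was 819 to 1050 CPM in 4 libraries and 1441 CPM in BLA-A. Krt8, Krt18, Krt19 and Cdh1 were highest in BLA-A, whereas Epcam was lowest there (39.7 CPM, against 68.8 CPM in untreated cells). The part of these differences in the results was not tested. The 5 macrophage and leukocyte markers summed to 8.60 to 11.8 CPM, with Lyz2 at 0 in every library and most of the sum in Cd68. The 6 fibroblast markers summed to 1.40 to 3.82 CPM with Lum at 0 in every library, and the 3 endothelial markers to 1.77 to 4.06 CPM. In a bulk sample, a change in the number of expressing cells and a change in RNA per cell cannot be told apart.

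Promoter windows from 250 bases before to 50 after the start of transcription were taken from RefSeq on GRCm38.p6 and matched 7 of the 10 genes; Mmp2, Mmp9 and Plau had no entry. Those of Mmp3, Mmp13, Timp1 and Plaur are shown, since these genes were higher together in BLA-A and their windows hold an AP-1 match or several ETS matches. Those of Mmp14 and Timp2, also higher there, hold 1 ETS match and no match and are not shown. Capitals mark matches, on either strand, to an AP-1 motif (TGANTCA), an ETS motif (AGGAAG) and a TATA box (TATAAA). No match of one motif overlapped a match of another. Mmp3 lies at chr9:7445572-7445871 (plus strand), Mmp13 at chr9:7272264-7272563 (plus), Timp1 at chrX:20869916-20870215 (plus) and Plaur at chr7:24462233-24462532 (plus).
Mmp3: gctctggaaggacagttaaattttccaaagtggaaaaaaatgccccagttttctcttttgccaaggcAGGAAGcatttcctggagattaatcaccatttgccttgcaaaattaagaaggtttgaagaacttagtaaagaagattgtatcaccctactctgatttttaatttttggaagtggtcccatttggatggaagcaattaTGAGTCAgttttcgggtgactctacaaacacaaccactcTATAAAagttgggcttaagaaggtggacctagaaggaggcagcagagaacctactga
Mmp13: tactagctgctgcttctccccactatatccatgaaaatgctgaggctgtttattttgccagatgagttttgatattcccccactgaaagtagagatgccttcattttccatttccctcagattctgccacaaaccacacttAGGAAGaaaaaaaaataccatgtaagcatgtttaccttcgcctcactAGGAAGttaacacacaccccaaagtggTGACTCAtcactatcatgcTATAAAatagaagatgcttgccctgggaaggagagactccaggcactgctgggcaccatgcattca
Timp1: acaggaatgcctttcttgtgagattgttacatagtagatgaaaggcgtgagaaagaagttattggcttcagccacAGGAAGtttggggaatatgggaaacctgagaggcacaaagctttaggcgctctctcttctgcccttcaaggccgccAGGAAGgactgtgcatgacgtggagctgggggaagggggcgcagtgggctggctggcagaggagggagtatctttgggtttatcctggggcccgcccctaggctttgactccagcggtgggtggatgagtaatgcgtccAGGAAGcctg
Plaur: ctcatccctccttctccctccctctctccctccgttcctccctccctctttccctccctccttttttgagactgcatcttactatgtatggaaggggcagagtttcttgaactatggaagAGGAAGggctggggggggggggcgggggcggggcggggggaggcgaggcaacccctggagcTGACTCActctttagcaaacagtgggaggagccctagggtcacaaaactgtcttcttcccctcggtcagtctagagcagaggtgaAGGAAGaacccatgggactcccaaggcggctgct
The AP-1 motif was present in 3 of the 7 windows (Mmp3, Mmp13, Plaur) and in 7.81% of all 32851 windows. The Mmp3 match read TGAGTCA and began 46 bases before the start, while those of Mmp13 and Plaur read TGACTCA and began 35 and 69 bases before it. The ETS motif was in 6 of the 7 windows, the exception being Timp2, and in 35.4% of all windows. Timp1 held 3 ETS matches, and Mmp13 and Plaur 2 each. The TATA box was in the Mmp3 and Mmp13 windows and in 13.6% of all. A match is a description of these letters only.

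**Figure D1:**
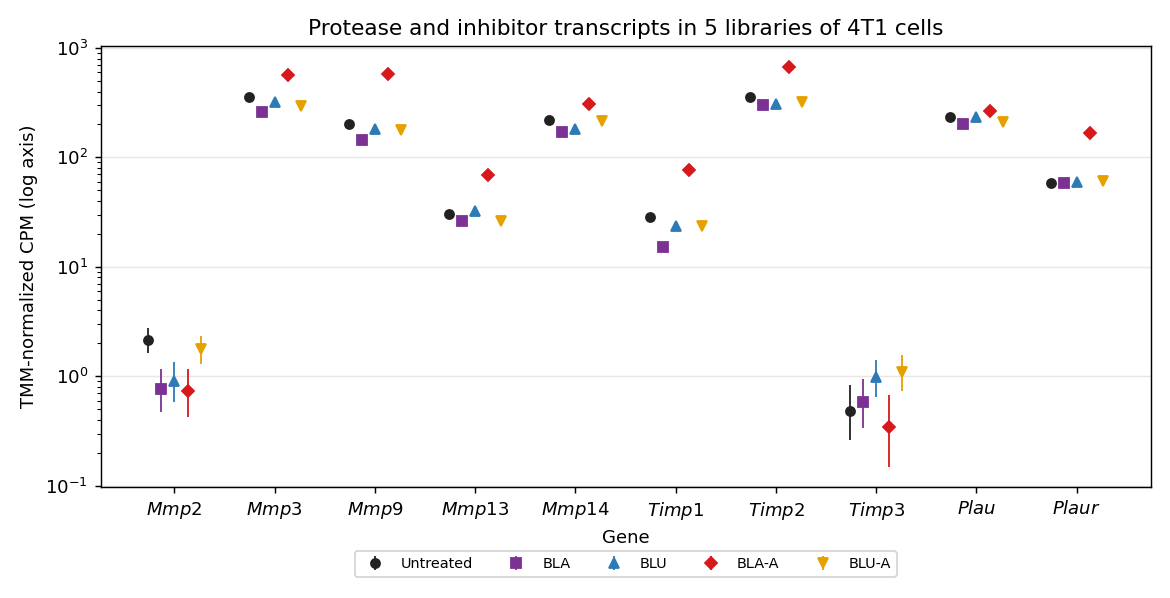
Level of each gene (TMM-normalized CPM, log axis) in the 5 libraries; each point is 1 library and bars are exact 95% Poisson intervals for counting error, often smaller than the point. The BLA-A library was highest for 8 of 10 genes, while Mmp2 and Timp3 lay near 1 CPM.

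Among the secreted proteases, Mmp9, gelatinase B, which cuts type IV collagen and gelatin, was at 200.2 CPM in untreated cells, 143.5 and 582 CPM with BLA and BLA-A, and 181.6 and 176.3 CPM with BLU and BLU-A. The gene lies on chromosome 2 of GRCm39 from 164780439 to 164797771. BLA-A stood alone above the other libraries, and BLA was the lowest. The log2 fold change against untreated cells (on CPM plus 0.5) was 1.54 in BLA-A (95% interval 1.49 to 1.59), a 2.91-fold ratio of CPM. With BLA it was -0.48 (-0.54 to -0.42), and with BLU and BLU-A it was -0.14 and -0.18.

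Mmp3, stromelysin 1, which cuts proteoglycans and laminin and can activate other pro-MMPs, was at 359.9 CPM in untreated cells, 257 and 569 CPM with BLA and BLA-A, and 324 and 293 CPM with BLU and BLU-A. The order of the libraries was the same as for Mmp9, with BLA-A first, untreated cells second and BLA last, and no counting intervals of neighbours overlapped. The log2 fold change was 0.66 in BLA-A (0.62 to 0.70) and -0.48 in BLA, and -0.15 and -0.30 with BLU and BLU-A. Mmp3 lies on chromosome 9 of GRCm39 from 7445822 to 7455975.

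Mmp13, collagenase 3, which opens fibrillar collagen, was at 30.4 CPM in untreated cells, 26.0 and 69.2 CPM with BLA and BLA-A, and 32.6 and 26.1 CPM with BLU and BLU-A. The 4 libraries other than BLA-A spanned only 0.32 on the log2 scale. BLA-A differed from untreated cells by 1.17 (1.06 to 1.31), whereas the BLU interval included 0 (log2 fold change 0.10, -0.04 to 0.24). Mmp13 lies on chromosome 9 from 7272514 to 7283331, in the same gene cluster as Mmp3.

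Mmp2, gelatinase A, was near 1 CPM, with 57 counts in untreated cells (2.14 CPM), 21 and 17 with BLA and BLA-A (0.771 and 0.734 CPM), and 25 and 47 with BLU and BLU-A (0.907 and 1.77 CPM). It is on chromosome 8 from 93553902 to 93580049. Mmp2 was thus lower in BLA-A, the library with the highest level of Mmp3, Mmp9 and Mmp13. The log2 fold changes with BLA, BLA-A and BLU, which were -1.05, -1.10 and -0.91, understate the change at this level because of the added 0.5 CPM, and the counting interval of the BLA-A ratio without it ran from -2.42 to -0.74. The difference in BLU-A was -0.21, and its interval included 0 (-0.86 to 0.31).

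The membrane-bound protease Mmp14 (MT1-MMP), which acts at the cell surface on collagen and activates pro-MMP2, was at 221.8 CPM in untreated cells, 172 and 310.2 CPM with BLA and BLA-A, and 184 and 216 CPM with BLU and BLU-A. It lies on chromosome 14 from 54668878 to 54682821. Its log2 fold change in BLA-A, 0.48 (0.43 to 0.53), was the smallest among the 4 MMPs that were higher there. BLA and BLU were both lower than untreated cells (-0.37 and -0.27), and the BLU-A interval included 0 (-0.04, -0.09 to 0.02).

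Of the inhibitors, Timp1, a secreted inhibitor that also binds pro-MMP9, varied most of the 10 genes, over 2.31 on the log2 scale. It was at 28.8 CPM in untreated cells, 15.2 and 77.2 CPM with BLA and BLA-A, and 23.8 and 23.5 CPM with BLU and BLU-A. The log2 fold change was 1.41 in BLA-A (1.30 to 1.54) and -0.90 in BLA (-1.10 to -0.75), so that the extract and the nanoparticles of the same berry lay at opposite ends. BLU and BLU-A, at -0.27 and -0.29, did not differ beyond counting error. Timp1 lies on chromosome X from 20736316 to 20740976, within the span of Syn1 on the opposite strand. Syn1 had 921, 663, 907, 1926 and 817 counts in untreated, BLA, BLU, BLA-A and BLU-A cells, respectively, and was thus also highest in BLA-A and lowest in BLA. Reads were counted by strand, and the part of Syn1 in the Timp1 values was not tested.

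Timp2, which inhibits MMP2 and also joins pro-MMP2 to Mmp14 at the cell surface, was at 353 CPM in untreated cells, 301 and 674 CPM with BLA and BLA-A, and 311 and 321 CPM with BLU and BLU-A. BLA-A lay far above the other 4 libraries, which spanned 0.23 on the log2 scale. The log2 fold change in BLA-A was 0.93 (0.89 to 0.97), a 1.91-fold ratio, and stood just under the 2-fold threshold. It was between -0.23 and -0.14 in the other treatments. Timp2 lies on chromosome 11 from 118191887 to 118246566.

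Timp3, the inhibitor that stays bound to the matrix, had the lowest level of the 10 genes per kilobase, with 13 counts in untreated cells, 16 and 8 with BLA and BLA-A, and 27 and 29 with BLU and BLU-A. It is on chromosome 10 from 86136236 to 86185371, opposite to Syn3, which had between 155 and 322 counts and was likewise lowest in BLA-A. The interval of the BLA-A difference ran from -1.97 to 0.88, so no direction could be read at this depth. In BLU-A the count ratio was 2.24-fold, with a log2 interval of 0.18 to 2.23.

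In the plasminogen pair, Plau was the steadiest of the 10 genes, over 0.41 on the log2 scale, at 232.1 CPM in untreated cells, 200.3 and 266 CPM with BLA and BLA-A, and 232.2 and 211 CPM with BLU and BLU-A. It lies on chromosome 14 from 20886722 to 20893453. Untreated and BLU cells did not differ beyond counting error, and the log2 fold change was 0.20 in BLA-A (0.14 to 0.25), -0.21 in BLA and -0.14 in BLU-A. With scaling by total counts the BLA-A value was 0.0015, so that the higher level of Plau there depended on the scaling.

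Plaur, the receptor anchored to the membrane by a lipid tail, behaved otherwise. It was at 58.4 CPM in untreated cells, 57.8 and 168 CPM with BLA and BLA-A, and 59.1 and 61.0 CPM with BLU and BLU-A. The 4 libraries other than BLA-A spanned 0.08 on the log2 scale with overlapping counting intervals, while BLA-A stood at 1.51 (1.44 to 1.61) over untreated cells. Plaur lies on chromosome 7 from 24161875 to 24175394.

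**Figure D2:**
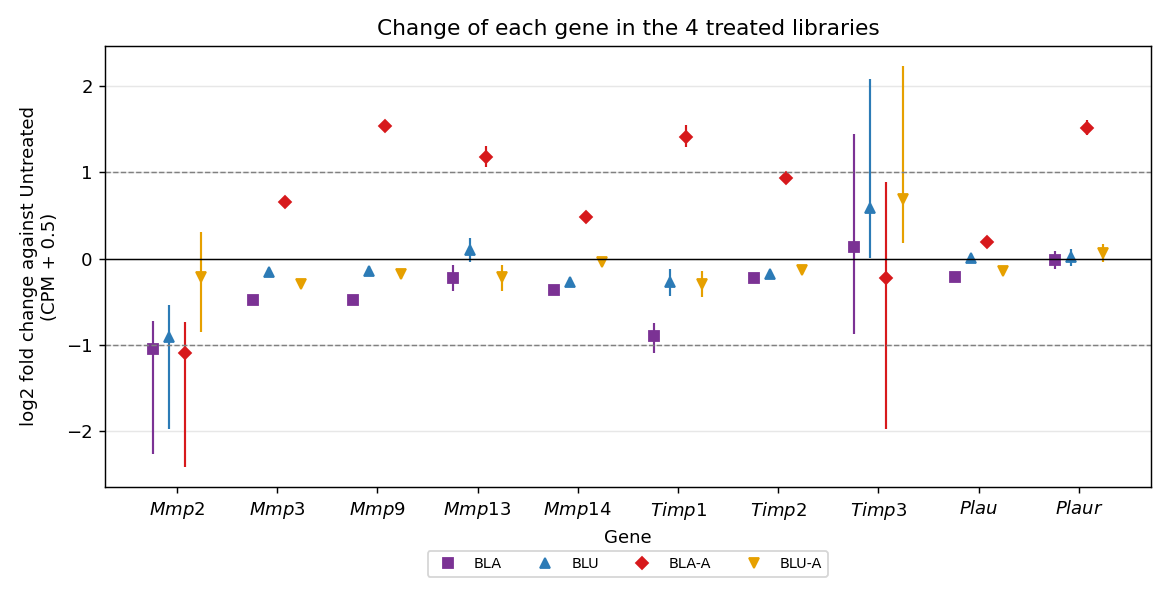
log2 fold change of each gene against the untreated library (CPM plus 0.5) in the 4 treated libraries; points are single libraries, vertical lines are exact 95% counting intervals of the CPM ratio without the added 0.5, and dashed lines mark 2-fold. Mmp9, Mmp13, Timp1 and Plaur lay above the upper dashed line in BLA-A, and the intervals of Mmp2 and Timp3 were wide.

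Counted over the 10 genes, 5 had moved over 2-fold against untreated cells in BLA-A, where 20.9% of all 17647 genes did. Mmp9, Mmp13, Timp1 and Plaur were higher (background 8.57% of genes) and Mmp2 was lower (background 12.4%). With a pseudocount of 2 CPM, Mmp2 was at -0.60 in BLA-A and no longer passed the threshold. In BLA only Mmp2 passed the threshold, and it was lower, as were 8.52% of genes. It did not pass there either with the larger pseudocount. None of the 10 passed it in BLU (background 10.3% of genes in either direction) or BLU-A (7.85%). For Mmp2 and Timp3, with few counts, this rested on the added 0.5 CPM. As CPM ratios without it, Mmp2 in BLU (0.42) and Timp3 in BLU and BLU-A (2.01 and 2.24) were past 2-fold. By direction alone, 9 of the 10 genes were lower than untreated with BLA (50.9% of all genes), 6 with BLU (50.5%), 8 with BLU-A (49.6%) and 2 with BLA-A (50.6%). The pattern of higher in BLA-A and lower in the other 3 treatments held for 5 of the 10 (Mmp3, Mmp9, Mmp14, Timp1 and Timp2) and for 11.2% of all genes. The median log2 fold change of the 10 genes was 0.80 with BLA-A and -0.30 with BLA, beside -0.01 over all genes in both. It was -0.15 with BLU and -0.16 with BLU-A, beside -0.01 and 0.002. BLA-A was the highest of the 5 libraries for 8 of 10 genes, against 29.4% of all genes and 38.5% of the 9765 genes with a mean of at least 10 CPM. Mmp2 and Timp3, for which it was not the highest, lay below that mean. For 4 of the 10, Mmp9, Mmp13, Timp1 and Plaur, the BLA-A level was over 2-fold above every other library, against 5.29% of all genes. BLA was the lowest library for the same 8 genes, against 22.6% of all genes. For Mmp13 and Plaur, however, the gap to the next library was within counting error. Mmp13 was at 26.0 and 26.1 CPM in BLA and BLU-A. Plaur was at 57.8 and 58.4 CPM in BLA and untreated cells. The 4 comparisons share 1 untreated library, and the 10 genes were chosen with earlier results of these data known.

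Scaling and base composition of the BLA-A library moved with these values. Scaling by total counts in place of TMM lowered the median of all genes there by 0.17 (log2), and the 4 genes then stood at 1.34 (Mmp9), 0.98 (Mmp13), 1.21 (Timp1) and 1.32 (Plaur), so that Mmp13 no longer passed 2-fold. The BLA-A fold changes also moved with GC content. Among genes with at least 10 CPM, the median log2 fold change was 0.44 in the fifth of genes with the highest GC content and -0.08 in the fifth with the lowest, while with the other 3 treatments these medians lay between -0.15 and 0.08. The transcripts of the 10 genes ranged from 41.7% GC (Mmp13) to 55.5% (Mmp9). Relative to the median of genes of like GC content, the 4 genes were in BLA-A at 1.36 (Mmp9), 1.37 (Mmp13), 1.37 (Timp1) and 1.43 (Plaur). Mmp3 was at 0.85, Mmp14 at 0.30 and Timp2 at 0.79. This setting was chosen after seeing the data. It used the GC content of the longest spliced transcript, while reads were counted over whole genes. The part of base composition in the BLA-A values was not tested.

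Levels of different genes were compared per kilobase of exon. In untreated cells Mmp3 was the most abundant, at 199.8 CPM per kb, followed by Plau at 90.4, Timp2 at 79.1, Mmp9 at 54.1 and Mmp14 at 36.0 CPM per kb. Timp1 and Plaur, at 14.7 and 14.6 CPM per kb, did not differ beyond counting error, and Mmp13 was at 11.4 CPM per kb. Mmp2 and Timp3 were at 0.605 and 0.0598 CPM per kb. In BLA-A the order changed, with Mmp3 at 316, Mmp9 at 157, Timp2 at 151 and Plau at 104 CPM per kb, so that Mmp9 moved from the fourth place to the second. This order depended on the length used. Per kilobase of gene span, Mmp9 came in BLA-A (33.6 CPM per kb) after both Mmp3 (56.0) and Plau (39.5). In untreated cells Timp2 (6.46 CPM per kb) was then below Mmp14 (15.9) and Mmp9 (11.6), and Timp1 (6.19) was above Plaur (4.32). Reads were counted over whole genes, introns included, and a length in exons overstates the level of genes with much intronic signal.

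The balance of protease and inhibitor was described by ratios within a library, which do not depend on the scaling. The level of Mmp9 over Timp1 per kilobase was 3.67 in untreated cells, 4.99 and 3.99 with BLA and BLA-A, and 4.04 and 3.97 with BLU and BLU-A. The ratio in BLA-A was thus close to those in BLU and BLU-A, although both genes were over 2-fold higher there, and it was highest in BLA, where Timp1 was lowest. For Mmp14 over Timp2 the ratio was 0.455, 0.414, 0.333, 0.428 and 0.487 in the same order, lowest in BLA-A. For Plau over Plaur it was 6.18, 5.39, 2.47, 6.12 and 5.37, and the BLA-A value stood apart from the others as Plaur was 2.87-fold and Plau 1.15-fold above untreated cells there. Summed over the genes, the 5 MMPs came to 815 CPM in untreated cells and 1532 CPM in BLA-A, and the 3 TIMPs to 383 and 751 CPM.

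The nanoparticles were compared with the extract of the same berry. For blackberry, BLA-A exceeded BLA by 2.31 on the log2 scale for Timp1 (2.19 to 2.50), 2.02 for Mmp9 (1.97 to 2.07), 1.53 for Plaur (1.45 to 1.62) and 1.39 for Mmp13 (1.28 to 1.54). The differences were 1.16 for Timp2, 1.14 for Mmp3, 0.85 for Mmp14 and 0.41 for Plau. For blueberry, the same 8 genes differed between BLU-A and BLU by -0.32 (Mmp13) to 0.24 (Mmp14). The intervals of Mmp9 (-0.10 to 0.02), Timp1 (-0.18 to 0.14) and Plaur (-0.05 to 0.15) included 0. Timp3 showed no detectable difference in either berry, at -0.36 (-2.20 to 0.54) for blackberry and 0.11 (-0.65 to 0.97) for blueberry. Mmp2 also departed from this order, with no detectable difference between BLA-A and BLA (-0.04, -1.08 to 0.92) and a higher level in BLU-A than in BLU (0.69, 0.24 to 1.73).

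**Figure D3:**
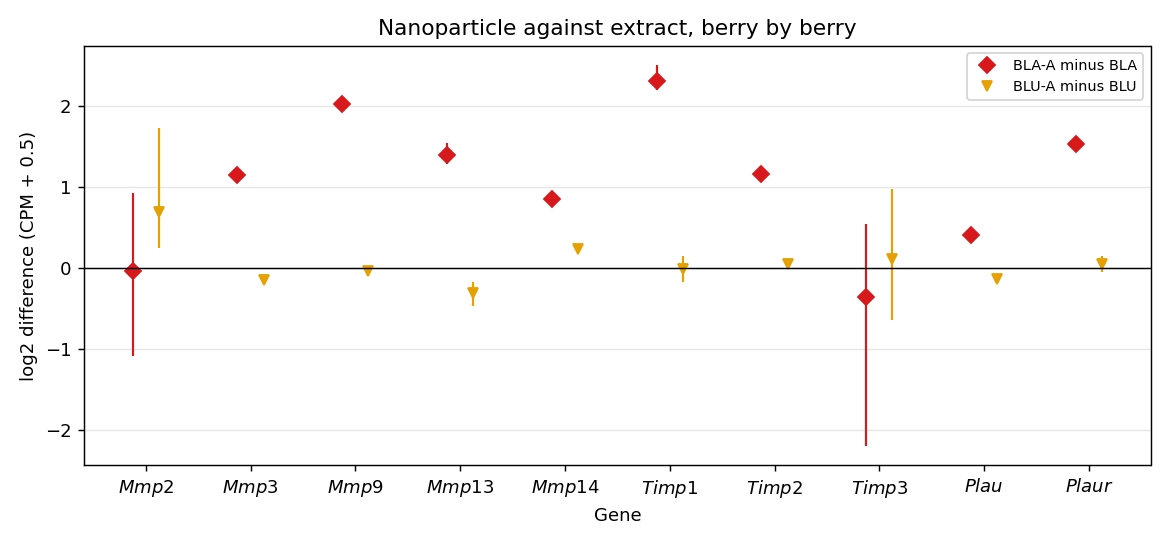
log2 difference (CPM plus 0.5) between nanoparticle and extract for blackberry (BLA-A minus BLA) and blueberry (BLU-A minus BLU), gene by gene; each point sets 1 library against 1 other and lines are exact 95% counting intervals of the ratio without the added 0.5. Blackberry differences reached 2.31 for Timp1, while blueberry differences of genes other than Mmp2 and Timp3 stayed between -0.32 and 0.24.

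Between the berries, the extracts differed less. BLA was below BLU for Timp1 by 0.63 on the log2 scale (interval of the difference -0.83 to -0.46), for Mmp9 by 0.34, for Mmp3 by 0.33 and for Mmp13 by 0.32. Plaur did not differ detectably between them (-0.03, -0.13 to 0.07). The nanoparticles differed more, with BLA-A above BLU-A by 1.72 for Mmp9, 1.70 for Timp1, 1.45 for Plaur, 1.39 for Mmp13 and 1.07 for Timp2.

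The tests across all 17647 genes used the 5 libraries, with the spread taken from the differences between treatments (edgeR quasi-likelihood test, Benjamini-Hochberg adjustment). For all treated libraries against untreated cells, none of the 10 genes was called (smallest adjusted p = 0.99986), none had an unadjusted p under 0.05 (2.74% of all genes), and 0.0227% of all genes were called. DESeq2 called none of the 10 in this comparison. With nanoparticles (BLA-A, BLU-A) set against extracts (BLA, BLU), none of the 10 was called by edgeR or DESeq2, beside 0.0% of all genes by edgeR. Timp1 and Mmp9 had an unadjusted edgeR p under 0.05, as did 5.98% of all genes. Their log2 fold changes were 1.37 (standard error 0.55) and 1.22 (standard error 0.50), with an adjusted p of 0.701 for both in the edgeR quasi-likelihood test. Both were higher in BLA-A than in either extract, while their levels in BLU-A and BLU did not differ beyond counting error. With blackberry set against blueberry, none of the 10 was called by either tool (edgeR, 0.0% of all genes; smallest adjusted p = 0.947), and none had an unadjusted edgeR p under 0.05 (3.82% of all genes). Without the BLU-A library 7 of the 10 genes were called for nanoparticle against extract, and without the BLA library the same 7 for blackberry against blueberry (all but Mmp2, Timp3 and Plau). These fits called 24.1% of 17416 and 29.3% of 17224 genes, both being fits in which BLA-A is alone in its group. The biological coefficient of variation in the fits with all libraries was 0.418 to 0.452, and 2 groups of 2 unlike libraries leave 2 residual degrees of freedom.

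Mmp3 and Mmp13 belong to a cluster of 10 Mmp genes on chromosome 9 of GRCm39, from 7272514 to 7699587, with 6 of them tested. In BLA-A, Mmp10, stromelysin 2, was at 111 CPM against 42.6 CPM in untreated cells (log2 fold change 1.37), with 51.8 CPM in BLA, 63.0 CPM in BLU and 41.7 CPM in BLU-A. Mmp1b stood at 1.29 and Mmp12 at 0.76, both below 10 CPM in every library. Mmp1a, between Mmp3 and Mmp10, was at -0.12 in BLA-A. The genes of the cluster therefore did not share 1 value in any treatment, and in BLU they ran from -0.64 (Mmp12, 15 and 5 counts) to 0.56 (Mmp10). The remaining 4 genes of the cluster, Mmp8, Mmp27, Mmp20 and Mmp7, had 16 counts or fewer in every library.

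**Figure D4:**
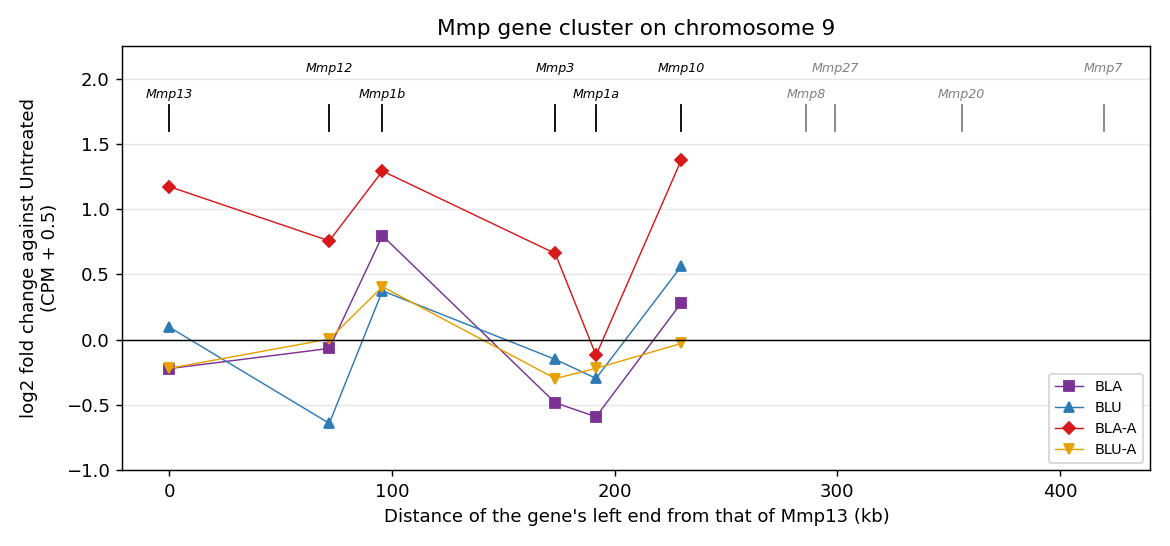
log2 fold change against the untreated library (CPM plus 0.5) of the 6 tested genes of the Mmp cluster, by the distance of each gene's left end from that of Mmp13 in kb; each line joins 1 treated library and ticks at the top place all 10 genes (grey where not tested). In BLA-A, 5 of the 6 genes lay above 0 and Mmp1a at -0.12.

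Related genes outside the 10 were taken from 6 lists of proteases, inhibitors and factors, with 59 genes tested. These lists, too, were chosen with earlier results of these data known. In BLA-A 15 were past 2-fold higher and 5 lower (background 8.57% and 12.4% of genes). In BLA 1 was higher and 2 lower (background 7.94% and 8.52%), in BLU 2 and 2 (5.67% and 4.6%), and in BLU-A 1 and 4 (3.35% and 4.5%). Of 9 other MMPs, Mmp10 and Mmp1b were higher in BLA-A and none was lower. Mmp28 was higher with BLA (1.93) and with both blueberry treatments (1.19 and 1.16), and Mmp24 lower with the same 3 (-1.65, -1.57 and -1.60), at levels under 10 CPM.

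In the plasminogen system, Lrp1, an endocytic receptor that takes up proteases bound to their inhibitors and had the highest mean of this list, was at 531 CPM in untreated cells and 1442 CPM in BLA-A (log2 fold change 1.44). Plat, the tissue-type activator, was at 9.37 and 19.9 CPM (1.04). Eno1, a glycolytic enzyme that also binds plasminogen, was lower in BLA-A (-1.04), as was the plasminogen receptor Plgrkt (-1.13).

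Among 7 tested inhibitors and activators, Bsg (CD147, known to induce MMPs) was at 1.65 and Furin, a proprotein convertase that activates Mmp14, at 1.32 in BLA-A. Spock1 was lower (-2.33, 77 counts in untreated cells and 4 in BLA-A). Thbs1, the gene with the highest mean of that list, was at -0.15. Of 14 ADAM and ADAMTS proteases, Adamts4 (1.62), Adamts7 (1.52) and Adamts1 (1.37) were higher in BLA-A, and Adamts12 and Adamts2, with low counts, were lower. Adam12 passed 2-fold in BLU (1.01), and Adam10, with the highest mean, stayed at 0.21 or below in each treatment. Of 7 tested cathepsins, heparanase and cystatin genes, the lysosomal protease Ctsd was at 1.43 in BLA-A, and Ctsl, with the highest mean, at 0.74.

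Of 13 AP-1, ETS and NF-κB factors, 4 were past 2-fold higher in BLA-A and none lower (background 8.57% and 12.4% of genes). None passed 2-fold in BLA, BLU or BLU-A (background 16.5%, 10.3% and 7.85% of genes in either direction). All 4 were AP-1 subunits, while the AP-1 subunits Jun, Fosb and Fosl1 did not pass. Fos was at 13.2 CPM in untreated cells, 23.6 and 62.5 CPM with BLA and BLA-A, and 12.6 and 21.9 CPM with BLU and BLU-A (log2 fold change 2.20 in BLA-A). Junb stood at 1.62, Jund at 1.57 and Fosl2 at 1.25 in BLA-A. Jun, with the highest mean of the list, was at 0.13 in BLA-A, and the AP-1 subunits Fosb and Fosl1 were at 0.90 and 0.24. The 4 ETS genes, Ets1, Ets2, Etv4 and Etv5, lay between 0.06 and 0.41 in BLA-A. Any relation of these factors to the motifs in the promoters of Mmp3, Mmp13 and Plaur was not tested.

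**Figure D5:**
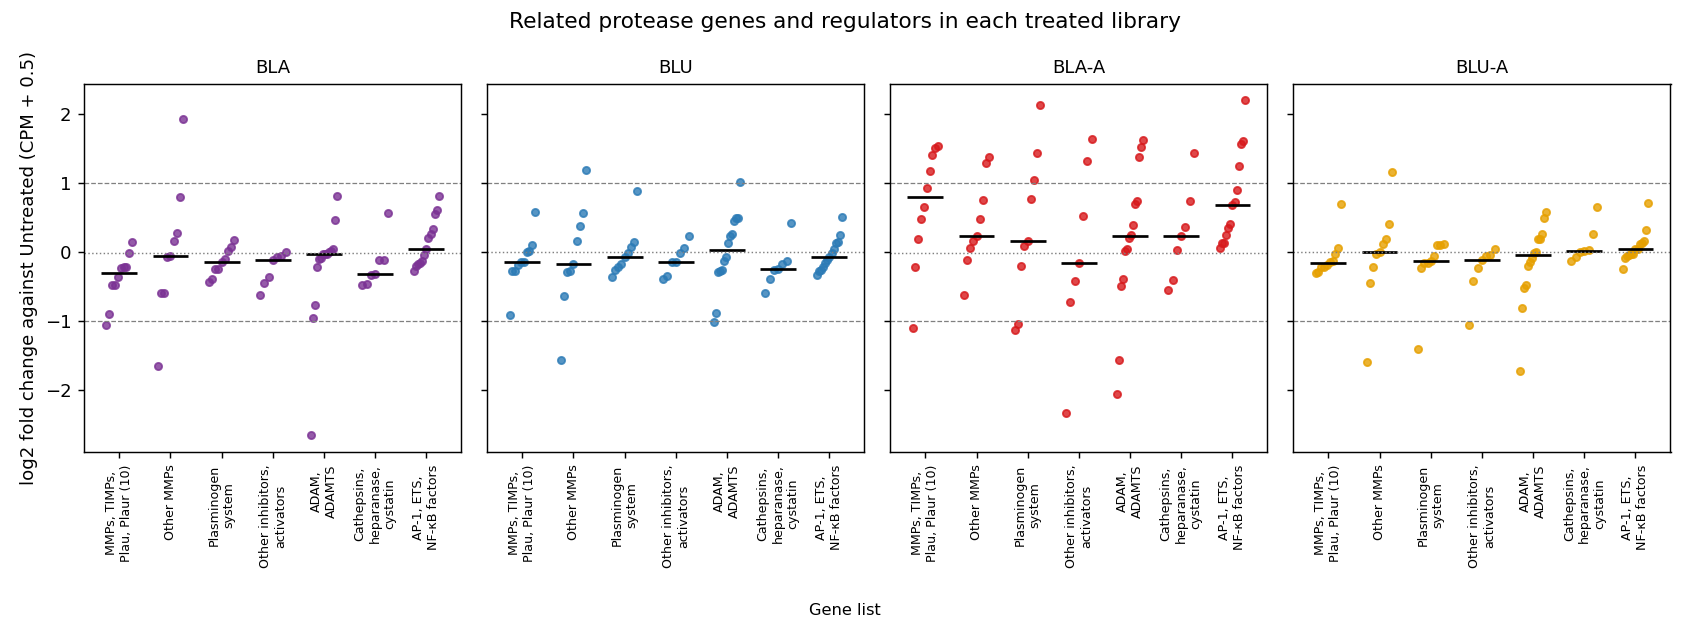
log2 fold change against the untreated library (CPM plus 0.5) of the 10 genes and of 59 tested genes of the 6 related lists, 1 panel per treated library; each point is a gene, black bars are list medians, dashed lines mark 2-fold and the dotted line the median of all genes. In BLA-A the median of the 10 genes was 0.80 and 15 related genes lay above the upper dashed line, against 1 with BLA, 2 with BLU and 1 with BLU-A.

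For Timp1, the gene with the widest range, the likeness of other genes was measured as the largest difference in log2 fold change over the 4 treatments, among 9765 genes with a mean of at least 10 CPM. Alyref, an mRNA export adaptor, was nearest, within 0.13, followed by Aqp1, a water channel, within 0.14, and Rpl37rt within 0.15. Over 4 values that share 1 untreated library, this is a description of 5 libraries.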

How the data were processed

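Bulk RNA-seq covered untreated 4T1 cells and 4 treatments. Ribosomal RNA was depleted. The authors aligned reads to GRCm39 with STAR and deposited raw counts per gene, counted over whole genes by strand (per the labels and methods). The submitters' processing notes also name DESeq and DESeq2 1.36.0. Deposited tables of the authors' own comparisons (log2 fold changes, p-values, enrichment scores) were not used. The labels give each column a batch date of its own, so batch and sample cannot be told apart.

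The 3 columns of a condition were averaged, rounded and used as 1 library. The 17647 genes reaching 1 CPM in some library were normalized by TMM in edgeR 4.0.16. Fold changes used CPM plus 0.5, with exact 95% intervals for counting error (conditional binomial for ratios, Poisson for levels). Tests were edgeR quasi-likelihood over all genes at an adjusted p of 0.05, with DESeq2 1.42.0 as an alternative (R 4.3.3, Python 3.11.15). Alternatives covered the scaling, the filter, the pseudocount, the columns used and, chosen after seeing the data, GC content. On simulated data with a coefficient of variation of 0.45, the comparison of treated with untreated libraries found 15% of the genes simulated at 4-fold and 88% of those at 16-fold (200 of 17647 simulated as changed). Gene positions and GC content came from GENCODE M39.

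Named genes are the 10 members, list genes past 2-fold in a treatment with at least 10 CPM in a library, the gene with the highest mean of each list, and the 3 genes nearest to the member of widest range. Genes named outside this rule were chosen after their values were seen. They were the cluster genes on chromosome 9, Mmp28, Mmp24, Spock1, Adamts12, Adamts2, Fosb, Fosl1, the ETS genes and the overlapping Syn1 and Syn3. Members and lists were chosen with earlier results of these data known. A gene of the lists is counted in their totals and not reported here by name.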

Additional observations from a re-analysis of the deposited data

Results flagged for a closer look

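Over the 4 treated libraries, the BLA-A level stood apart on the log2 scale for 3 of the 10 genes, where its gap to the next library took a share of the whole range above Dixon's 95% critical value. This share was 0.832 for Mmp9, 0.918 for Timp2 and 0.95 for Plaur. The 4 libraries are different treatments, not replicates, and about 1 group in 20 passes this value by chance. Among all 17647 genes, BLA-A was outlying high at 3.72%, and any of the 4 libraries was outlying at 9.61%.

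For 3 genes the nanoparticle lay above the extract in blackberry and below it in blueberry, and the counting interval of each difference excluded 0. The same held for 7.46% of all 17647 genes, and an opposite pair in either order for 15.6%. The log2 differences were 1.14 and -0.15 for Mmp3, 1.39 and -0.32 for Mmp13, and 0.41 and -0.14 for Plau, BLA-A minus BLA first and BLU-A minus BLU second. With 1 library per condition, the difference between the berries was not tested.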

How the results depend on the processing

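The log2 fold changes of the 10 genes in the 4 treatments (40 values) were recomputed under up to 11 settings, giving 432 values. Of these, 396 moved by less than the counting interval, 36 moved further and 0 reversed a change past 2-fold. Most of the 36 were values of BLA-A, under another scaling, another filter or the GC setting. For 37 of the 40 the sign held under every setting, the exceptions being Plau in BLU and Plaur in BLA and BLU, all near 0. The count of 5 genes past 2-fold in BLA-A ran from 4 to 6. Its lower gene, Mmp2, was lost with a pseudocount of 2 CPM and was not tested with 1 CPM required in every library, Mmp13 was lost with scaling by total counts, and Timp2 was added with no filter on low counts. The count of 1 in BLA (Mmp2) was 0 with 1 CPM required in every library, which leaves out Mmp2 and Timp3, 0 with a pseudocount of 2 CPM, 0 relative to genes of like GC content, and 0 to 1 when the columns of one replicate number were left out (0 without replicate 2). Of related genes past 2-fold, 3 in BLA became 1 with 1 CPM in every library. The 4 in BLU became 2 with 1 CPM in every library, 1 with a pseudocount of 2 CPM and 2 without replicate 3 (2 to 4 over the replicate numbers), and the 5 in BLU-A became 1 and 1 with the first 2 of these settings.

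For nanoparticle against extract, 0 of the 10 genes were called. With no filter on low counts 3 were called (Mmp9, Plaur and Timp1), beside 1.86% of 29781 genes tested. Leaving out 1 library at a time gave 0 to 7, with 7 without BLU-A (all but Mmp2, Timp3 and Plau), where BLA-A is alone in its group and is assumed to vary like the extracts. For blackberry against blueberry, 0 were called, and 1 (Mmp9) with no filter, beside 0.97% of 29781 genes tested. Leaving out 1 library gave 0 to 7, with the same 7 genes without BLA, where BLA-A is again alone. Over all genes, 4, 0 and 0 were called for treated against untreated, nanoparticle against extract and blackberry against blueberry, against 17, 36 and 27 with DESeq2. With no filter on low counts the second and the third became 554 and 289, without BLU-A the second became 4198 (24.1% of genes) and without BLA the third 5043 (29.3%). Without BLA-A the counts were 46, 51 and 339. With levels per kilobase of gene span in place of exons, 4 genes in place of 8 reached 10 CPM per kb in untreated cells. The replicate numbers are shared by read subsets only, and deviations of same-numbered columns had a mean correlation of -0.00106 over 30 pairs. With the replicate block over 15 columns, 1 and 5 genes passed 2-fold with BLA and BLA-A and 0 with either blueberry treatment, as without the block. Values under about 1 CPM (Mmp2, Timp3) are limited by depth.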
